A study of Mus musculus with 6 samples.

Results

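The genes described here make, fill and empty secretory granules in platelets, their megakaryocyte precursors and mast cells. The list holds 37 genes, chosen by name from the complexes and families that build granules, move them and fuse them with the cell surface, out of 53801 mouse genes in the count table. All 37 symbols were found once each in the annotation. Of these, 36 had enough counts to be tested and 1, Sytl4, did not. RNA was sequenced from mouse fetal liver cells with an inducible Arid3a-FLAG construct (3 libraries) or with an inducible construct named LUC (3 libraries). In both groups the cells came from E12.5-13.5 embryos of a B6J.129(Cg) strain with Cas9 and EGFP at the Rosa26 locus, under the broadly active CAG promoter, and both carried the guide sgGata1 and the microRNA miR-125b. Both also received doxycycline, 1 μg/mL for 48 h, so the construct was the only labelled difference. The cells are called Gata1s cells, Gata1s being the shortened form of the factor GATA1, and the labels do not say whether a library came from 1 animal, 1 transduction or a pool.

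Alpha granules of platelets hold clotting proteins and chemokines, dense granules hold serotonin and nucleotides, and mast cell granules hold proteases and histamine. Dense granules and mast cell granules belong to the lysosome-related organelles, whose contents and membranes are delivered from endosomes by the BLOC complexes and the adaptor AP-3. Release needs Rab GTPases that bring the granule to the surface, then fusion by SNARE proteins, in which a SNARE on the granule zips up with SNAREs on the target membrane under the guidance of Sec1/Munc18 (SM) proteins.

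Libraries held between 15730908 and 18249053 counts. Reads of the construct numbered 3348, 3044 and 2758 with Arid3a-FLAG and 0 in every LUC library. The endogenous Arid3a gene had a log2 fold change of -0.01 (adjusted p = 0.977), and how reads common to gene and construct were assigned is not given. LUC library 2 stood apart from the other 5 on the second principal component (24.0% of the variance), and its effect on the members is given below. Among markers, Itga2b, the fibrinogen receptor chain of megakaryocytes, stood at 2068 CPM with Arid3a-FLAG and 1778 CPM with LUC (CPM, counts scaled to library size and composition). The liver cell gene Ttr and the T cell gene Cd8a were at 0 in all 6 libraries, and Alb, the serum albumin of hepatocytes, had 0, 0 and 1 counts with Arid3a-FLAG and 0, 2 and 0 counts with LUC. Afp, another listed hepatocyte marker, was present, with 317, 271 and 302 counts with Arid3a-FLAG and 326, 396 and 400 with LUC.

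Most of the granule machinery did not pass the test for a change with Arid3a-FLAG. Of the 36 tested genes, 2 rose, Syt13 and Stx11, none fell and 34 did not pass (edgeR, adjusted p under 0.05 over all 13631 tested genes). This is 5.56% of the list, against 7.29% of all tested genes, and 3.43% of all tested genes rose while 3.87% fell. The share called in the list was therefore not above that of the whole table. At an unadjusted p under 0.05 there were 6 higher and 2 lower members, 22.2% of the list against 25.6% of all tested genes. DESeq2 called 4 members higher and 1 lower, with 5.66% of all tested genes higher and 5.8% lower. With limma-voom 2 members were higher and 0 lower, with 3.57% of all tested genes higher and 3.85% lower. In bulk RNA, fewer cells of a type and less RNA per cell cannot be told apart, here and in every result that follows.

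The changes within the list were small. The median log2 fold change of the 36 genes was 0.07, against -0.03 over all tested genes, and the median size of change without regard to sign was 0.15, against 0.20. Of the 34 members that did not pass, 27 had a 95% interval that lay wholly inside a 1.5-fold change in either direction. Over all tested genes 56.1% had such an interval, and over the list 75.0%. The list was also better counted, with a median level of 61.6 CPM against 28.0 CPM for all tested genes, and the intervals are narrower for well counted genes. The 7 whose interval reached past 1.5-fold without a call were Dtnbp1, Lyst, Rab32, Vamp8, Syt11, Selp and Treml1.

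**Figure D1:**
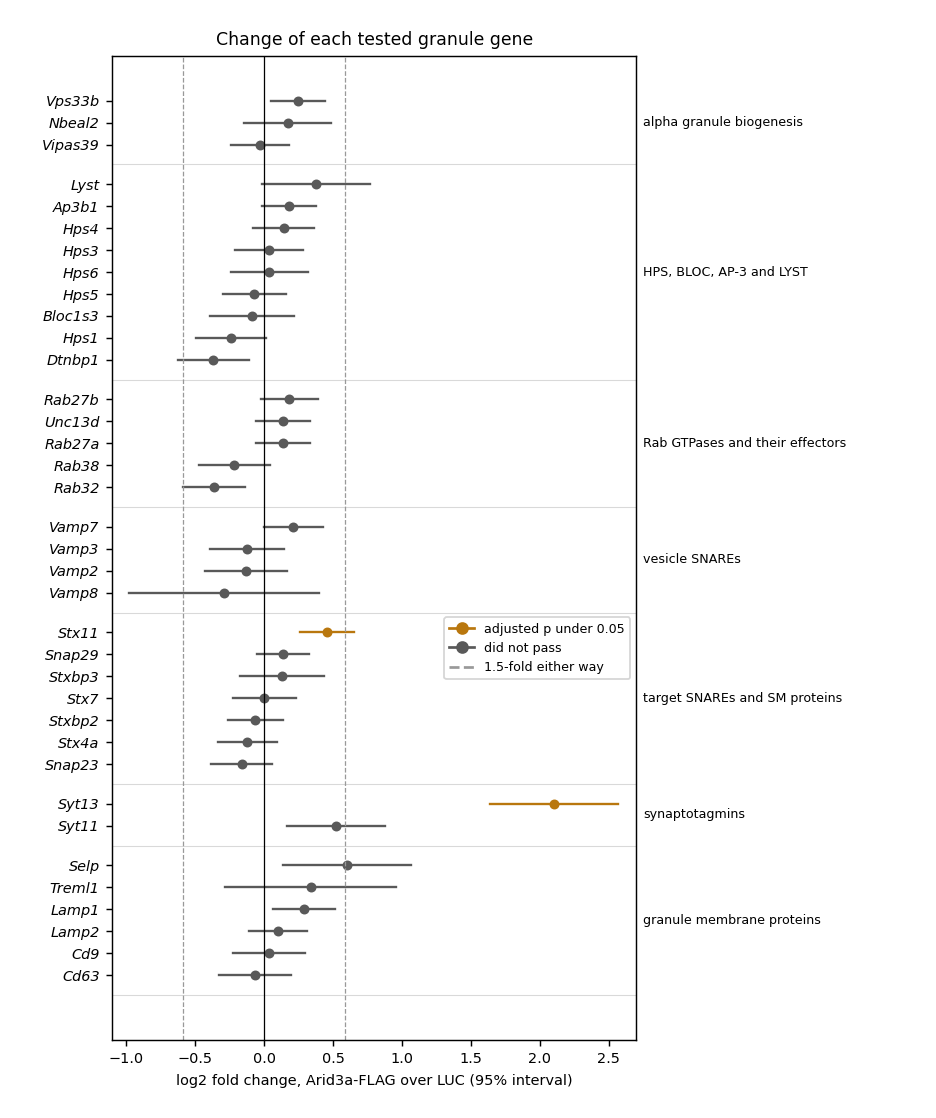
Log2 fold change of each of the 36 tested granule genes, Arid3a-FLAG over LUC, on the horizontal axis, with genes grouped by role down the page. Points are estimates from the edgeR fit, bars are 95% intervals and dashed lines mark a 1.5-fold change. Syt13 at 2.10 stands alone to the right, Stx11 at 0.46 is the only other gene past the threshold, and most other intervals cross 0 between the dashed lines.

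Separation of the groups went mostly in 1 direction. In 14 of the 36 tested members (38.9%) the 3 Arid3a-FLAG libraries did not overlap the 3 LUC libraries in CPM, against 33.1% of all tested genes. Arid3a-FLAG was on the higher side in 12 of these, or 33.3% of the list against 16.6% of all tested genes, and on the lower side in 2, or 5.56% against 16.5%. The size of the split depended on how libraries were scaled, with more members on the higher side each time. With upper quartile factors it was 9 members on the higher side, against 15% of all tested genes, and 4 on the lower side, against 18.3%. With RLE factors, another scaling, it was again 12 and 2, against 17.3% and 15.8% of all tested genes. Without scaling factors it was 10 and 3, against 18.1% and 14.7%. No test was made of this split, and the members were chosen with results of these data known.

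Levels per exon length spanned a wide range among the members. On the RPKM scale (CPM divided by kilobases of exon), the most abundant was Cd9, a tetraspanin of platelet and granule membranes, at 236.9 ± 12.4 RPKM with Arid3a-FLAG and 231.0 ± 36.03 RPKM with LUC (SD, n = 3 each). It was followed by Rab38 at 121.4 ± 1.90 RPKM with Arid3a-FLAG and 141.0 ± 23.7 RPKM with LUC. Next came Cd63, another tetraspanin, at 102.6 ± 3.45 RPKM with Arid3a-FLAG and 107.2 ± 17.5 RPKM with LUC. Rab38 lay above Cd63 in each of the 6 libraries, although the LUC ranges of the genes overlapped. At the low end of the tested members lay Lyst at 1.40 ± 0.0819 RPKM with Arid3a-FLAG and 1.08 ± 0.289 RPKM with LUC, and Vamp8 at 1.64 ± 0.474 RPKM with Arid3a-FLAG and 2.004 ± 0.785 RPKM with LUC. These last 2 do not differ from each other beyond their spread in the Arid3a-FLAG libraries. Of the unscaled counts, all 37 genes together took 0.364% to 0.370% in the Arid3a-FLAG libraries and 0.343% to 0.354% in the LUC libraries. Their summed CPM was 3681, 3632 and 3592 with Arid3a-FLAG and 3333, 3751 and 3489 with LUC. On this scale the groups overlapped, and LUC library 2 was the highest of the 6.

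**Figure D2:**
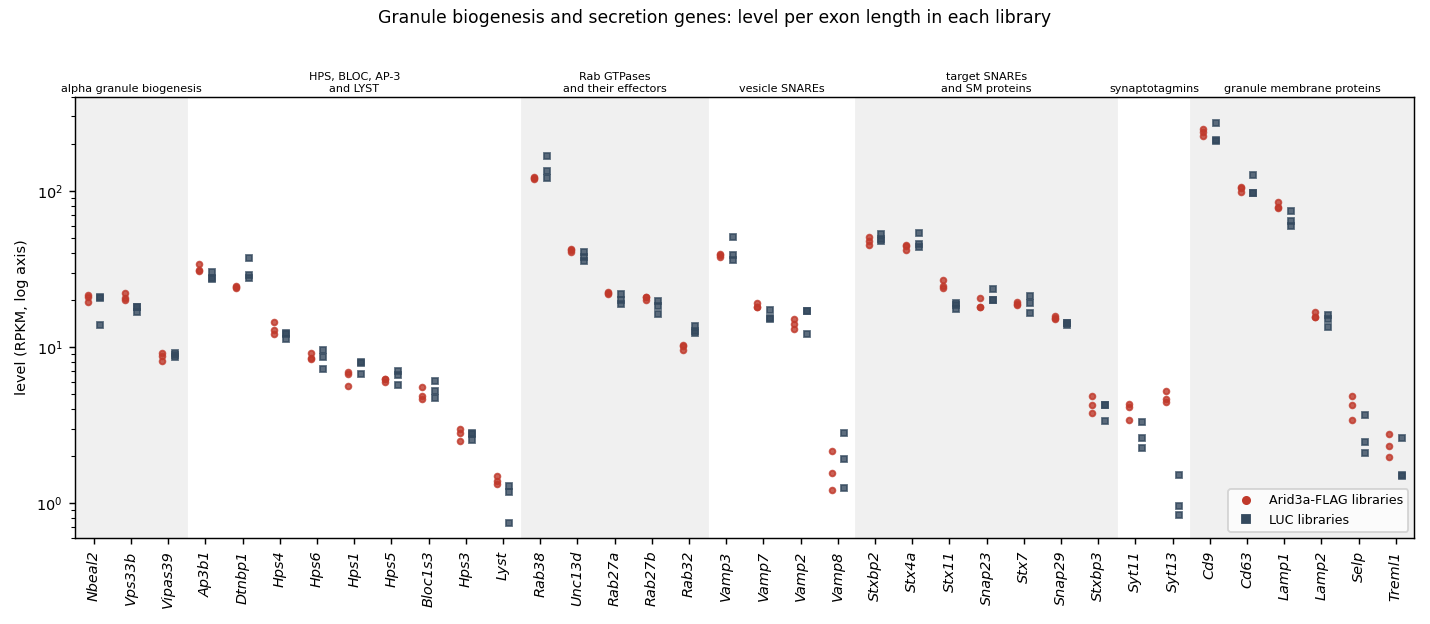
Level of 36 granule genes in every library, in RPKM on a log axis, grouped by role, with Arid3a-FLAG libraries as circles and LUC libraries as squares to their right. Levels run from about those of Lyst, near 1 RPKM, to those of Cd9, over 200 RPKM, and the group difference is wider than the spread most plainly for Syt13. Sytl4, with at most 3 counts in a library, is left out.

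Promoter sequence was read for the members that RefSeq promoter windows of GRCm38.p6 cover, which were 29 of 37 (33 windows, since some genes have several starts). Syt13, Rab27b, Rab38, Unc13d, Vamp2, Vamp3, Vamp7 and Vps33b had no entry. For both windows of Rab27a, the bases just after the start were not found in a GENCODE transcript of the gene. The same held for a window each of Hps6, Stx7 and Vipas39, so these starts are uncertain. The 250 bases before each start were searched on both strands for 5 short words. The E-box CACGTG, which reads the same on both strands and is bound by basic helix-loop-helix factors such as MITF and TFEB, stood in 7 of the 29 genes and in 21.2% of their windows, against 6.02% of all 32851 windows. The 7 were Lamp1 with 4 copies, Hps5 with 2, and Bloc1s3, Hps3, Rab27a, Stxbp2 and Treml1 with 1 each. Windows with 4 or more copies numbered 7 in all. None of these 7 genes passed the test, and their log2 fold changes were 0.29 for Lamp1, -0.07 for Hps5, -0.09 for Bloc1s3, 0.04 for Hps3, 0.14 for Rab27a, -0.06 for Stxbp2 and 0.34 for Treml1.

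The other words were found less often or near the level of all windows. The GATA word GATAA stood in 12.1% of the member windows and 22.6% of all windows, the ETS word CCGGAA in 12.1% and 12.03%, the RUNX word TGTGGT in 18.2% and 14.0%, and the AT-rich word AATTAA in none and 10.4%. None of the 5 words was found in the window of Stx11, the member with a window that rose. A match or its absence describes only the letters of these windows. The sequences of Stx11, of Lamp1 and of Hps5 are shown because the first rose and the others hold the most E-boxes. They are given 5′ to 3′ on the strand of the gene, ending at the base before the start, with E-boxes in capitals, at chr10:12964260-12964509 (minus strand) for Stx11, chr8:13158911-13159160 (plus strand) for Lamp1 and chr7:46795882-46796131 (minus strand) for Hps5.
Stx11: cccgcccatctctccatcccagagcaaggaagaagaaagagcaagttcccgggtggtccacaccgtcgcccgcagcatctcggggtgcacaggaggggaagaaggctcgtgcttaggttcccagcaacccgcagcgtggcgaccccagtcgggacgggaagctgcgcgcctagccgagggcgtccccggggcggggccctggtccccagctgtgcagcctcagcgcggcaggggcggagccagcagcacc
Lamp1: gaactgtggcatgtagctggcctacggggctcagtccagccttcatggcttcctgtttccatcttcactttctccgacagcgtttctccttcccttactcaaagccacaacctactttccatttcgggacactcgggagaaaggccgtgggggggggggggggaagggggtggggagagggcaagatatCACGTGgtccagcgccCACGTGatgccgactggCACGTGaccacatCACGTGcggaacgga
Hps5: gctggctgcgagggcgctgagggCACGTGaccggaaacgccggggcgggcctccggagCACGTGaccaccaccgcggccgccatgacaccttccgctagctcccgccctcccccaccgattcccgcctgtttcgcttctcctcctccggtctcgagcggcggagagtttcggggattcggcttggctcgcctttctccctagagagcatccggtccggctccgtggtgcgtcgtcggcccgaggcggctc
In Lamp1 the copies lay within the last 61 bases before the start, with first bases at -61, -45, -28 and -15. In Hps5 they lay at -227 and -192 from the RefSeq start. The GENCODE gene begins further upstream, at 46796064, inside this window and closer to both copies.

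Alpha granule biogenesis is served by 3 members, and none passed. Nbeal2, a BEACH domain protein whose loss in humans empties platelets of alpha granules (grey platelet syndrome), had 186.7, 206.9 and 201.2 CPM with Arid3a-FLAG and 196.5, 132.2 and 198.9 CPM with LUC. The groups overlapped, LUC library 2 was the lowest of the 6, and the log2 fold change was 0.17 (SE 0.14, adjusted p = 0.478), or 0.018 without that library. Vps33b, an SM protein needed for alpha granules, had 69.9, 76.9 and 71.6 CPM with Arid3a-FLAG and 62.9, 58.5 and 62.6 CPM with LUC. Every Arid3a-FLAG library lay above every LUC library, at a log2 fold change of 0.25 (standard error, SE, 0.09, adjusted p = 0.111). Its binding partner Vipas39 averaged 34.2 ± 1.99 CPM with Arid3a-FLAG and 35.0 ± 0.982 CPM with LUC, a log2 fold change of -0.03 (95% interval -0.24 to 0.18).

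The BLOC, AP-3 and LYST group held 9 tested genes, of which none passed, with log2 fold changes from -0.37 to 0.38. These are the genes whose loss gives Hermansky-Pudlak or Chediak-Higashi syndrome, with pale coat or skin and dense granule defects. The lowest value was that of Dtnbp1, dysbindin of BLOC-1, at 91.5, 90.7 and 89.2 CPM with Arid3a-FLAG and 107.5, 139.4 and 103.4 CPM with LUC. All Arid3a-FLAG libraries lay below all LUC libraries and LUC library 2 was the highest, and the log2 fold change was -0.37 (SE 0.12, adjusted p = 0.080). Without LUC library 2 the size of the change was -0.21, and the adjusted p was then 0.042, while with no filter on low counts it was 0.028. At the other end was Lyst, a large BEACH protein that sets granule size, at 24.3, 26.0 and 23.1 CPM with Arid3a-FLAG and 22.7, 13.1 and 20.6 CPM with LUC. The groups did not overlap and LUC library 2 was the lowest, and the log2 fold change of 0.38 (SE 0.18, adjusted p = 0.211) became 0.19 without it.

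The other members of the group had values closer to 0. In BLOC-3, the exchange factor that activates Rab32 and Rab38, Hps1 had 32.9, 39.4 and 40.5 CPM with Arid3a-FLAG and 47.2, 39.4 and 46.6 CPM with LUC, a log2 fold change of -0.24 (95% interval -0.50 to 0.02). Its partner Hps4 averaged 51.8 ± 4.66 CPM with Arid3a-FLAG and 46.9 ± 2.28 CPM with LUC, a log2 fold change of 0.14 (95% interval -0.08 to 0.36). The difference between the 2 subunits was not tested. The BLOC-2 subunits Hps3, Hps5 and Hps6 lay between -0.07 and 0.04. Ap3b1, the beta chain of AP-3, stood at 0.18 (adjusted p = 0.225) with all Arid3a-FLAG libraries above all LUC libraries, and Bloc1s3 of BLOC-1 at -0.09. Exons of Hps1, Hps3 and Hps4 overlap those of genes on the opposite strand, and whether counting used the strand is not given, so their values are uncertain.

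Of the 6 Rab GTPases and effectors, 5 were tested and none passed. Rab32, which delivers cargo to lysosome-related organelles, had 24.1, 23.7 and 22.4 CPM with Arid3a-FLAG and 29.8, 31.8 and 28.7 CPM with LUC. The groups did not overlap, and the log2 fold change of -0.36 (SE 0.10) just missed the threshold (adjusted p = 0.057). Upper quartile scaling (0.048), DESeq2 (0.046) and the fit without LUC library 2 (0.045) put it past the threshold, while 5 of the 6 fits without 1 library left it outside, with an adjusted p up to 0.202. Its close relative Rab38, 92.4% ± 0.265 of the pair's summed RPKM with Arid3a-FLAG and 91.5% ± 0.992 with LUC, stood at -0.21 (adjusted p = 0.275), with overlapping groups, and at -0.059 without LUC library 2.

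Rab27a and Rab27b, which dock granules at the plasma membrane, were near equal per exon length. Rab27b made up 48.1% ± 0.380 of the pair's summed RPKM with Arid3a-FLAG and 47.3% ± 0.777 with LUC. It had 222.7, 224.0 and 213.4 CPM with Arid3a-FLAG and 174.2, 197.2 and 209.8 CPM with LUC. The groups did not overlap, yet the log2 fold change was only 0.18 (SE 0.09, adjusted p = 0.248), and Rab27a, whose exons share 149 bases with a pseudogene, had 0.14 (adjusted p = 0.363). Unc13d, the Munc13-4 protein that primes granules as a Rab27 effector, averaged 195.3 ± 3.37 CPM with Arid3a-FLAG and 177.3 ± 12.8 CPM with LUC (0.14, adjusted p = 0.344). Another Rab27 effector, Sytl4 (granuphilin), had 0, 1 and 3 counts with Arid3a-FLAG and 0, 0 and 1 with LUC, too few to test or to give a fold.

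Among the vesicle SNAREs the make-up was led by Vamp3, and none of the 4 passed. Vamp3 was 53.1% ± 0.868 of their summed RPKM with Arid3a-FLAG and 55.5% ± 5.69 with LUC. Vamp7 was 25.3% ± 0.961 with Arid3a-FLAG and 21.1% ± 0.0428 with LUC, and Vamp8, the main granule SNARE of mature mouse platelets, was 2.25% ± 0.665 with Arid3a-FLAG and 2.68% ± 1.16 with LUC. Vamp7 had 48.7, 45.9 and 45.8 CPM with Arid3a-FLAG and 38.1, 44.0 and 39.1 CPM with LUC. These groups did not overlap (log2 fold change 0.21, SE 0.10, adjusted p = 0.198), and without LUC library 2 the adjusted p was 0.030. In the annotation used, Vamp7 lies on an unplaced scaffold.

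Vamp8 was thinly counted, with 45, 62 and 79 counts in Arid3a-FLAG libraries and 113, 68 and 54 in LUC libraries. Its log2 fold change of -0.29 had a 95% interval from -0.98 to 0.40, so a change of nearly 2-fold could not be told from none. Vamp3 had 113.7, 112.7 and 109.4 CPM with Arid3a-FLAG and 105.0, 147.6 and 113.0 CPM with LUC, where LUC library 2 was the highest of the 6. Its log2 fold change of -0.12 (adjusted p = 0.566) turned to 0.052 without that library. Vamp2, best known from synapses, had 49.4, 57.4 and 53.9 CPM with Arid3a-FLAG and 64.7, 46.0 and 65.3 CPM with LUC. Here LUC library 2 was the lowest of the 6, and the log2 fold change of -0.13 (adjusted p = 0.573) became -0.26 without that library (adjusted p = 0.044).

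Stx11 was the one gene that rose among the 7 target SNAREs and SM proteins. It encodes syntaxin 11, the target SNARE of platelet and cytotoxic granule release, and its loss in humans causes a familial haemophagocytic disease. Stx11 (ENSMUSG00000039232, chromosome 10, 12938209 to 12964298, minus strand, mm10) had 113.6, 101.2 and 103.8 CPM with Arid3a-FLAG and 74.1, 80.1 and 78.1 CPM with LUC. Every Arid3a-FLAG library lay above every LUC library, and the fitted fold was 1.37 (log2 fold change 0.46, SE 0.09, 95% interval 0.26 to 0.65, adjusted p = 0.013). The gene no longer passed when Arid3a-FLAG library 1 (0.097) or library 2 (0.058) was left out, while the log2 fold change stayed between 0.41 and 0.49 in all 6 fits without 1 library. Its share of the summed RPKM of the 3 listed syntaxins was 28.6% ± 1.66 with Arid3a-FLAG and 21.7% ± 1.23 with LUC.

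The proteins that work with syntaxin 11 did not pass. Stxbp2 (Munc18-2), its SM partner, had 188.0, 199.8 and 209.7 CPM with Arid3a-FLAG and 205.8, 221.4 and 197.6 CPM with LUC, a log2 fold change of -0.06 (95% interval -0.26 to 0.13). Snap23, the SNARE that joins it in the fusion complex, had 88.7, 77.1 and 78.0 CPM with Arid3a-FLAG and 85.6, 86.4 and 100.6 CPM with LUC, a log2 fold change of -0.16 (adjusted p = 0.337). In both the groups overlapped. Snap29, a relative of Snap23, had 54.6, 53.0 and 52.1 CPM with Arid3a-FLAG and 47.6, 48.8 and 48.8 CPM with LUC, without overlap and with a log2 fold change of 0.14 (adjusted p = 0.343). Stx4a, a plasma membrane syntaxin (-0.12), Stx7, an endosomal one (0.00), and Stxbp3, the SM partner of syntaxin 4 (0.13), had adjusted p of 0.457, 0.994 and 0.589. Snap29 shares exon bases with Pi4ka on the opposite strand.

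The synaptotagmins held the widest change of the list. Synaptotagmins are membrane proteins with a pair of C2 domains, and Syt11 and Syt13 belong to those that lack calcium binding. Syt13 (ENSMUSG00000027220, chromosome 2, 92915098 to 92956058, plus strand) had 17.5, 19.8 and 16.6 CPM with Arid3a-FLAG and 3.18, 3.60 and 5.72 CPM with LUC, from 282, 341 and 265 counts against 55, 55 and 106. The lowest Arid3a-FLAG library was well above the highest LUC library, and the gene was 4.29-fold higher (95% interval 3.11 to 5.92, adjusted p = 0.00043). The call held in all 6 fits without 1 library, where the log2 fold change ran from 1.95 to 2.44.

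Syt11 pointed the same way with a smaller difference. It had 22.5, 21.4 and 17.7 CPM with Arid3a-FLAG and 11.8, 13.7 and 17.4 CPM with LUC. Arid3a-FLAG library 3 lay just above LUC library 3, so the groups did not overlap, and the log2 fold change of 0.52 (SE 0.16) did not pass (adjusted p = 0.077). DESeq2 (0.034), the fit with no filter on low counts (0.0073) and the fit without LUC library 3 (0.030) put it past the threshold. Per exon length the order of the pair differed between the groups. Syt13 stood at 4.78 ± 0.434 RPKM and Syt11 at 3.94 ± 0.482 RPKM with Arid3a-FLAG, while with LUC Syt13 stood at 1.11 ± 0.363 RPKM and Syt11 at 2.74 ± 0.547 RPKM.

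**Figure D3:**
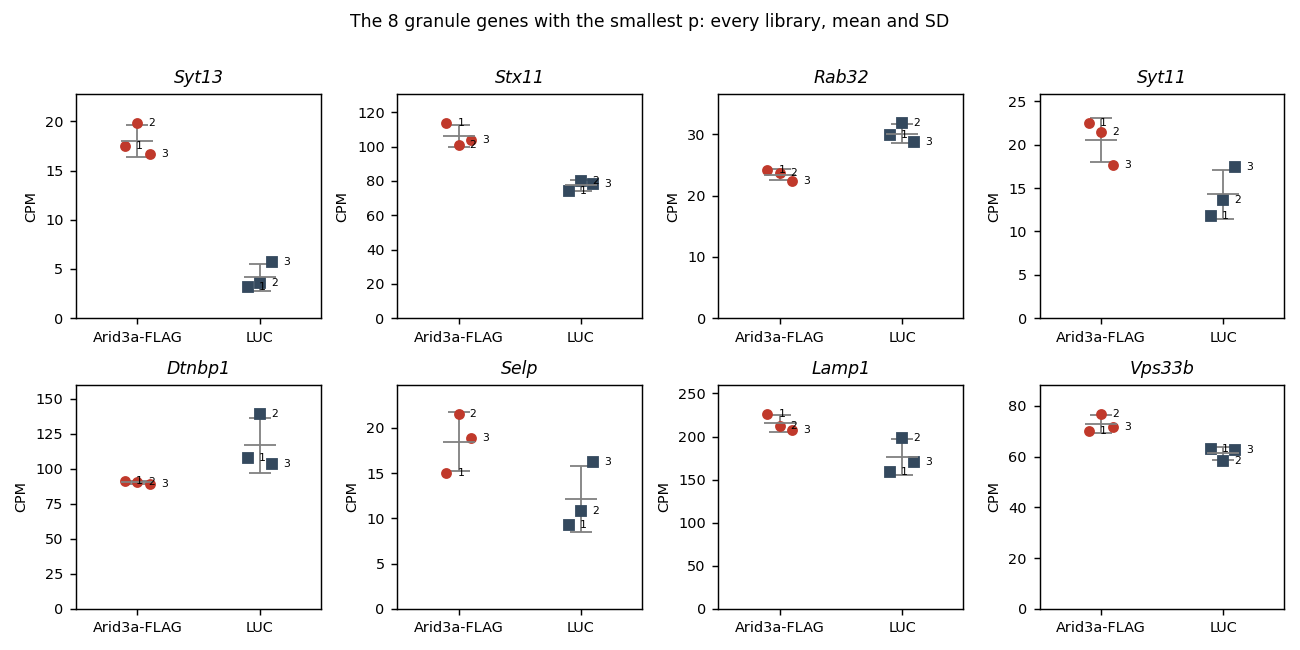
CPM in every library for the 8 granule genes with the smallest p, with Arid3a-FLAG at the left and LUC at the right of each panel. Points are libraries labelled by replicate number, horizontal marks are means and bars are SD (n = 3 each). Syt13 shows the widest gap, 16.6 to 19.8 CPM with Arid3a-FLAG against 3.18 to 5.72 CPM with LUC, and Selp is the panel where the groups overlap.

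Granule membrane proteins gave 6 tested members, none past the threshold. Selp, which encodes P-selectin, the adhesion receptor that alpha granules bring to the platelet surface, had 15.0, 21.5 and 18.8 CPM with Arid3a-FLAG and 9.30, 10.9 and 16.2 CPM with LUC. LUC library 3 lay above Arid3a-FLAG library 1, and the log2 fold change was 0.60 (SE 0.21, adjusted p = 0.106). Without LUC library 3 it was 0.90 (adjusted p = 0.024), DESeq2 gave an adjusted p of 0.047 and the fit with no filter on low counts 0.0022. Exons of Selp overlap non-coding genes on the opposite strand over 438 and 186 bases. The alpha granule receptor Treml1 (TLT-1) was thinly counted, with 63, 56 and 44 counts with Arid3a-FLAG and 37, 56 and 39 with LUC, and a 95% interval from -0.28 to 0.96.

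Lamp1, a main glycoprotein of lysosome and granule membranes, had 226.4, 212.3 and 207.3 CPM with Arid3a-FLAG and 158.8, 198.7 and 170.9 CPM with LUC. The groups did not overlap, and the log2 fold change was 0.29 (SE 0.10, adjusted p = 0.109). LUC library 2 was the highest LUC library, and without it the log2 fold change was 0.40 (adjusted p = 0.0031). Lamp1 shares 249 exon bases with Grtp1 on the opposite strand. Its relative Lamp2 averaged 152.8 ± 7.34 CPM with Arid3a-FLAG and 142.6 ± 13.4 CPM with LUC (0.10, adjusted p = 0.545). Cd63 had 381.8, 363.5 and 387.8 CPM with Arid3a-FLAG and 359.5, 469.1 and 355.5 CPM with LUC, and Cd9 had 509.0, 485.0 and 458.5 CPM with Arid3a-FLAG and 424.0, 557.0 and 435.7 CPM with LUC. In both, LUC library 2 was the highest of the 6, and the log2 fold changes of -0.06 and 0.04 had 95% intervals of -0.33 to 0.20 and -0.23 to 0.30. Cd9 shares 218 exon bases with a non-coding gene on the opposite strand.

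LUC library 2 set the edge of many of these comparisons. It was the highest of the 6 libraries for 11 members and the lowest for 7, together 50% of the 36, against 57.0% of all tested genes. Without it, 4 members rose (Syt13, Stx11, Vamp7 and Lamp1), with 8.52% of all genes then tested higher, and 3 fell (Dtnbp1, Rab32 and Vamp2), with 7.83% lower. Without LUC library 3, 4 rose (Syt13, Stx11, Syt11 and Selp) and none fell, with 4.42% of all genes higher and 3.16% lower. Syt13 alone rose and none fell without Arid3a-FLAG library 1 (all genes 0.821% higher and 0.843% lower) or library 2 (0.941% higher and 1.17% lower). Beside the members already given, leaving out LUC library 2 moved the log2 fold change of Stx4a to -0.019, of Stx7 to 0.11 and of Stxbp2 to -0.0044. It moved Treml1 to 0.65, Cd9 to 0.19 and Cd63 to 0.093, where the sign of Cd63 turned. The small values of Hps3, Hps5, Hps6, Bloc1s3 and Vipas39 became 0.0062, -0.13, 0.14, -0.15 and 0.0041. None of these 11 passed the test with or without the library.

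**Figure D4:**
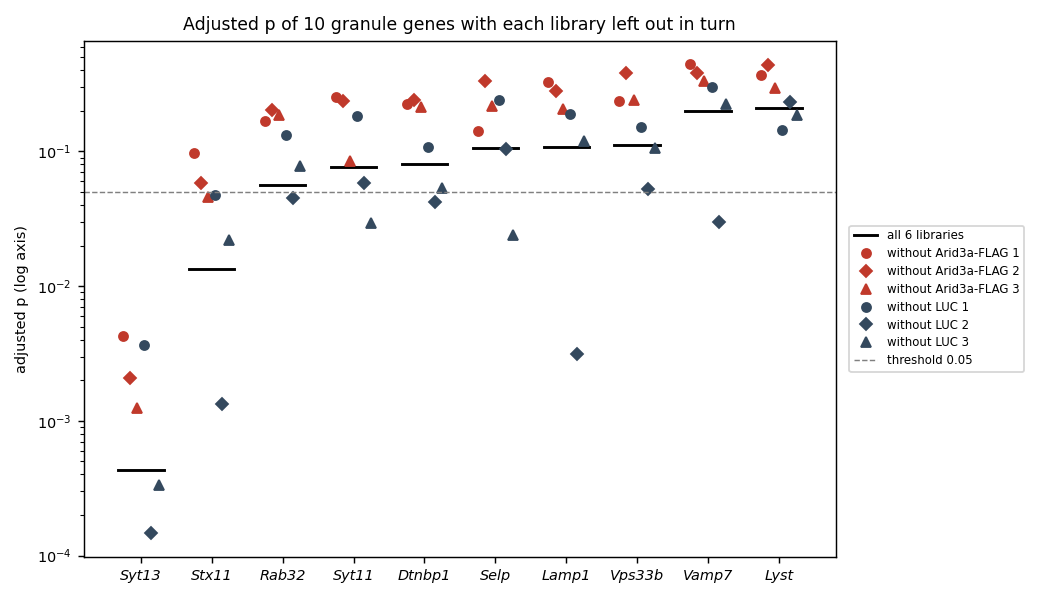
Adjusted p on a log axis for the 10 granule genes with the smallest p, with all 6 libraries (black bars) and with each library left out in turn (symbols, Arid3a-FLAG in red and LUC in dark blue). Syt13 stays under the dashed threshold of 0.05 in every fit, Stx11 crosses it without Arid3a-FLAG library 1 or 2, and Rab32, Syt11, Dtnbp1, Selp, Lamp1 and Vamp7 each pass in 1 fit.

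Other genes of the same complexes and families gave more calls than the 37 members. The wider list held 110 names, of which 85 were tested, and 8 rose, 4 fell and 73 did not pass. This is 14.1% called against 7.29% of all tested genes, with a median log2 fold change of 0.05 against -0.03. Of all tested genes 3.43% rose and 3.87% fell. The wider list was also chosen with results of these data known, and no test was made of its share. Cplx2, a complexin that binds assembled SNAREs and acts in mast cell release, rose to 73.9, 64.9 and 69.5 CPM with Arid3a-FLAG, against 35.5, 27.3 and 30.3 CPM with LUC (1.16, SE 0.11, adjusted p = 0.00043). Sytl3, a synaptotagmin-like Rab27 effector, fell to 10.8, 12.1 and 10.04 CPM with Arid3a-FLAG, against 24.6, 32.04 and 28.6 CPM with LUC (-1.37, SE 0.14, adjusted p = 0.00043). Its relative Sytl2 rose by 0.59 on the log2 scale (adjusted p = 0.027). The effectors of Rab27 thus did not share a direction.

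Calls outside the effectors spread over several steps. Nsf, the ATPase that takes used SNARE complexes apart, rose by 0.46 (adjusted p = 0.021), Syt9, a calcium-binding synaptotagmin, by 0.94 (0.022) and Exoc5 of the exocyst tether by 0.42 (0.025). The gamma chain of the adaptor AP-1, Ap1g1, rose by 0.45 (0.015), Vps33a, the HOPS relative of Vps33b, by 0.39 (0.036) and the platelet tetraspanin Tspan9 by 0.96 (0.0093). Rab37, a mast cell granule Rab, fell to 73.8, 76.2 and 82.2 CPM with Arid3a-FLAG, against 103.7, 110.3 and 121.8 CPM with LUC (-0.53, adjusted p = 0.0091). Cd53, a leukocyte tetraspanin (-0.9997, 0.039), and the syntaxin Stx3 (-0.58, 0.045) also fell. None of the 15 other tested BLOC, AP-3 and BEACH genes passed in edgeR, with 4 at an unadjusted p under 0.05. Ap1g1 shares 1435 exon bases with an antisense gene, and Exoc5 shares 528 with Ap5m1 on the opposite strand, so their values are uncertain.

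Markers of several blood cell types moved in the same libraries. Of 10 tested megakaryocyte markers 4 rose (Itgb3, Gp9, Gp1bb and Gp5) and none fell, with 8 log2 fold changes above 0 and 2 below. The summed level of the 10 ran from 6627 to 7090 CPM with Arid3a-FLAG and from 6152 to 7653 CPM with LUC. Pf4 was the largest part of this sum, at 3282, 3175 and 2971 CPM with Arid3a-FLAG and 3288, 4984 and 3543 CPM with LUC. It did not pass (log2 fold change -0.33, adjusted p = 0.231), and its direction was opposite to that of most of these markers. Of 12 mast cell and basophil markers 10 were tested and 3 fell, with sums from 2436 to 3279 CPM with Arid3a-FLAG and from 3340 to 3901 CPM with LUC, and the tryptases Tpsb2 and Tpsab1 had at most 2 counts in a library. Of 9 erythroid markers 7 were tested, 2 rose and 1 fell, with sums from 276.9 to 365.0 CPM with Arid3a-FLAG and from 193.2 to 247.6 CPM with LUC and with Slc4a1 at 0. Their part in the changes of the granule genes was not tested.

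Markers of the remaining types were fewer. Of 7 cytotoxic lymphocyte markers 3 were tested and 2 fell, with sums of 210.4 to 376.2 CPM with Arid3a-FLAG and 452.1 to 602.2 CPM with LUC that were nearly all Gzmb, while Cd8a was at 0. Neutrophil markers (3 of 9 tested, 2 fell) summed to 10.5 to 23.1 CPM with Arid3a-FLAG and 20.6 to 23.1 CPM with LUC. Macrophage markers (4 of 6 tested, 1 rose) summed to 13.8 to 14.6 CPM with Arid3a-FLAG and 8.20 to 8.37 CPM with LUC, with Marco at 0. Hepatocyte markers (1 of 4 tested, none passed in edgeR, none at an unadjusted p under 0.05) summed to 15.7 to 19.7 CPM with Arid3a-FLAG and 18.9 to 26.3 CPM with LUC. Nearly all of this hepatocyte sum was Afp. The part of these cells in the results was not tested either.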

How the data were processed

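Total RNA was purified with a Quick-RNA kit and made into Illumina libraries, per the labels' protocols. The deposited values are read counts per gene and library, not normalized. Per the submitters' processing notes the tools were fastp, HISAT2 2.0.5 and featureCounts, with build mm10; their settings, the annotation release and the strand setting were not given in the sources used here. The construct entry was kept out of the tests.

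Gene symbols, positions and lengths were taken from GENCODE M21 (GRCm38, also called mm10) by Ensembl identifier; 95 identifiers had no match. The test was edgeR 4.0.16 under R 4.3.3 (filterByExpr defaults, TMM factors, quasi-likelihood F test, group as the only term, two-sided, Benjamini-Hochberg over 13631 genes, threshold 0.05). Where no other tool is named, an adjusted p is edgeR's. CPM used TMM-scaled library sizes, and RPKM divided these by merged exon length. Standard errors were derived from the fold change and the F statistic. The fit was tested on simulated data. Alternatives used limma 3.58.1 and DESeq2 1.42.0, other scalings and filters, a replicate block, and each library left out in turn.

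The members, the gene lists and the marker lists were chosen with earlier results of these data known. All members are accounted for; those past the threshold and the 2 with the smallest p in each role are given in every library, as are others chosen after their values were seen, and the 12 other machinery genes with the smallest p are named. The labels do not say that replicates came from separate animals or cultures, and the p-values therefore reflect how far these libraries vary, which may be technical variation.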

Additional observations from a re-analysis of the deposited data

How the results depend on the processing

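Of 36 tested members, Syt13 kept its direction and call in all 14 alternatives in which single members were compared, and Stx11 in all but those without Arid3a-FLAG library 1 or 2. Members higher numbered 2 and lower 0 as reported. With no filter on low counts they were 4 and 1 (all genes 869 and 1076), and with DESeq2 4 and 1 (all genes 771 and 790). Upper quartile factors gave 2 and 1 (all genes 413 and 595). At an adjusted p under 0.01, 1 member was higher, with 125 higher and 137 lower among all genes. With 1 library left out, members higher ran from 1 to 4 and lower from 0 to 3, and all genes from 115 to 1191 higher and from 118 to 1095 lower, against 467 and 527. For all genes the extremes were without Arid3a-FLAG library 1 and without LUC library 2. The cause was not tested. The sign turned for 10 members that passed in no fit. With 1 library left out, their log2 fold changes ran as follows, Vipas39 from -0.065 to 0.017, Hps3 from -0.020 to 0.11, Hps5 from -0.13 to 0.013, Hps6 from -0.044 to 0.14, Bloc1s3 from -0.17 to 0.040, Vamp3 from -0.19 to 0.052, Vamp8 from -0.53 to 0.073, Stx7 from -0.063 to 0.11, Cd63 from -0.10 to 0.093 and Cd9 from -0.010 to 0.19. Stx7 was also at -0.014 with upper quartile factors. The same-numbered libraries did not deviate together (correlations -0.10, -0.11 and 0.12). With 3 libraries per group this cannot show whether they shared an animal, culture or day, and the labels do not say. With the replicate block 3 members were higher, Selp being the added one (adjusted p = 0.048), and 0 lower, with 410 and 530 among all genes. No scaling alternative moved the median of all genes by as much as 0.1 on the log2 scale. Depth limits Vamp8, Treml1 and Sytl4 most.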
